A study of Caenorhabditis elegans with 2 samples.

Results

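The 37 genes described here build the body muscle of Caenorhabditis elegans or set its fate: 4 encode fate regulators, 10 encode thick-filament and giant sarcomere proteins or a myosin chaperone, 12 encode thin-filament proteins and 11 encode attachment proteins. They were chosen by name, with earlier results of these data known. All 37 were found among the 19973 protein-coding genes annotated on the nuclear chromosomes of assembly WBcel235, the same assembly as ce11. The sites examined at them are peaks of the zinc-finger protein ZTF-16, obtained by chromatin immunoprecipitation and sequencing (ChIP-seq), a method that recovers the DNA fragments a protein is crosslinked to. Both samples came from late embryos of strain OP558, of mixed sex, taken 5 hours after egg bleaching had synchronised them. The strain's labelled genotype is unc-119(tm4063) III with the integrated transgene wgIs558, which encodes ZTF-16 with a carboxyl-terminal tag of GFP and FLAG, and the antibody was raised against GFP. The samples are 2 biological replicates of 1 group, so no conditions were compared, and both carry the same transgene and the same unc-119 allele. Because whole embryos were used, a peak at a muscle gene cannot be assigned to muscle cells, and whether the tagged protein was present in muscle was not tested. Peaks from animals without the transgene were not analysed here.

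Body wall muscle of the worm is obliquely striated. Myosin and paramyosin form its thick filaments, and actin, tropomyosin and the troponins form its thin filaments. Dense bodies and M-lines anchor both through integrin complexes to the basement membrane and so to the epidermis. The muscle fate is set by transcription factors of which HLH-1, the worm homologue of MyoD, and UNC-120, a relative of serum response factor, are the best known. ZTF-16 is a C2H2 zinc-finger protein related to Hunchback and Ikaros.

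On ce11 the authors deposited a peak list for each replicate (21235 peaks for replicate 1 and 18242 for replicate 2), a pooled list of 14968 peaks, and 822 peaks that passed a threshold on the irreproducible discovery rate (IDR). The replicate and pooled lists are relaxed and, by their deposited names, include background. Signal values are the authors' caller's own, run from 28.4 to 835 in the pooled list and from 77.4 upward among the IDR-thresholded peaks, and are compared here within a list only. Replicates are therefore compared by rank, where rank 1 is the strongest peak of a list. The lists give no read numbers, and the depth behind a peak is unknown.

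IDR-thresholded summits fell at 4 of the muscle genes, act-2, act-4, unc-60 and unc-112, which together carried 5. The genes code for a pair of actins, for the actin-depolymerising factor of the ADF/cofilin family and for the kindlin homologue of the integrin complex. None is among the 4 fate regulators or the 10 thick-filament, giant-protein and chaperone genes. Only 4.32% of all protein-coding genes had an IDR-thresholded summit in the promoter window or gene body. Finding none among so few genes therefore does not set these classes apart. In the promoter window, which reaches 1000 bp before the annotated 5' end and 200 bp past it, 3 of 37 genes had such a summit, which is 8.11% (Wilson 95% interval 2.80 to 21.3), beside 3.29% of all protein-coding genes. In the gene body 1 of 37 had one (2.70%, interval 0.479 to 13.8), beside 1.17% of all genes. In either place the count was 4 of 37 (10.8%, interval 4.29 to 24.7), beside 4.32%. The intervals cover counting error over genes only, and each of them contains the value for all genes. They do not cover the choice of the list, which was made with earlier results of these data known, and are not a test.

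**Figure D1:**
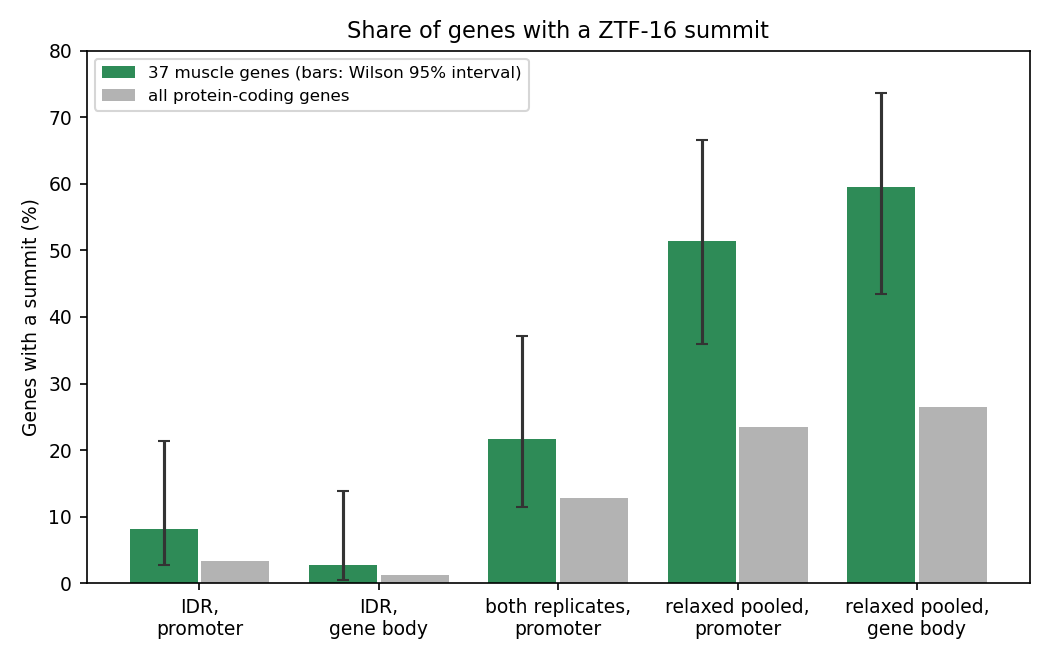
Share of genes (%) with a ZTF-16 summit for 5 kinds of call, with the 37 muscle genes in green (error bars are Wilson 95% intervals) and all protein-coding genes in grey. The IDR-thresholded shares are 8.11% and 3.29% in promoter windows, while the relaxed pooled shares are 51.4% and 23.5% there and 59.5% and 26.4% in gene bodies.

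The sequences at the 5 summits are shown because they are the only IDR-thresholded summits at these genes, together with the promoter summit of unc-45, a weaker site present in both replicates and chosen for display after its values were seen. Each is the 101 bases centred on a summit in RefSeq's WBcel235 assembly, read 5' to 3' on the strand of the gene. Capitals mark matches, on either strand, to CANNTG (the E-box that factors such as HLH-1 bind), GGGAA (the core of Ikaros-type sites), AAAAAA (the A-run of Hunchback-type sites) or GAGAG, which was added after the sequences were seen.
act-2, chrV:11078517-11078617, minus strand: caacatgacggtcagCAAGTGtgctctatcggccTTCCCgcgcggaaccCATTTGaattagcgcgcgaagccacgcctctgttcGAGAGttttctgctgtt
act-4, chrX:4961742-4961842, plus strand: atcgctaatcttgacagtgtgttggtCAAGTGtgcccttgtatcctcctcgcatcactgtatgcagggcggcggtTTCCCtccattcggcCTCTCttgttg
act-4, chrX:4962516-4962616, plus strand: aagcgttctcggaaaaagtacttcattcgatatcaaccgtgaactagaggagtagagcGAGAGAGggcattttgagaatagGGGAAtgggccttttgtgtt
unc-60, chrV:1474645-1474745, plus strand: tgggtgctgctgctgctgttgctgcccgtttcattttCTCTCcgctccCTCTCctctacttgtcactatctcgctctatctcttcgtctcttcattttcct
unc-112, chrV:14696964-14697064, minus strand: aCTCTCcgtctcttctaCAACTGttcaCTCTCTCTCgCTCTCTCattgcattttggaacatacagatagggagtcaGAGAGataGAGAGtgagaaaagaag
unc-45, chrIII:491232-491332, plus strand: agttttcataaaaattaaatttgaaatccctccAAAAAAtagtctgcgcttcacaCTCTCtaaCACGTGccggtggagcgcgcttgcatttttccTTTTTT

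E-boxes occurred in 3 of the 5 IDR-thresholded windows, at act-2, unc-112 and one of the act-4 sites, beside 34.7% of all 822 IDR-thresholded windows of the same length. GGGAA also occurred in 3 of 5, at act-2 and both act-4 sites, beside 20.9% of the 822. AAAAAA was in none of the 5, beside 22.3%. In the windows of all 67 relaxed pooled summits at muscle genes, GGGAA was less frequent than in all relaxed pooled windows (14.9% beside 19.8%). E-boxes were in 38.8% of the 67 windows, beside 32%, and AAAAAA in 23.9%, beside 35.6%. GAGAG was in all 5 IDR-thresholded windows, with 8 matches at unc-112, beside 35.3% of the 822 windows. As it was picked after these sequences were seen, its count in them is not independent of that choice. It was in 43.3% of the 67 relaxed pooled windows at muscle genes, beside 20.4% of all relaxed pooled windows. No motif share was tested. A match describes the letters of a window and is not evidence of binding. The GC content of the 5 windows ran from 43.6% at unc-112 to 55.4% at act-2, within the 48.8% ± 8.07 (SD over 822 windows) of the whole list. Of the 36-base words in each of the 6 windows, none occurred a second time on either strand of the nuclear chromosomes.

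At act-4, an actin gene (WBGene00000066, X:4960621 to 4964413, plus strand), both IDR-thresholded summits lay in the first intron. That intron separates a first exon, which ends 97 bp downstream of the 5' end, from a second that begins 2179 bp downstream. The stronger summit was 1945 bp downstream (X:4962566, in a peak from 4962346 to 4962785) and had a signal of 98.2 and rank 506 in the pooled list, with rank 517 in replicate 1 (signal 51.9) and rank 586 in replicate 2 (signal 47.1). The weaker was 1171 bp downstream (X:4961792, in a peak from 4961572 to 4962011), with pooled signal 78.5 and rank 801, rank 622 in replicate 1 (signal 47.3) and rank 1272 in replicate 2 (signal 33.9). Both replicates held both sites, and the stronger was among the 822 strongest of each. A shorter annotated transcript of act-4 starts 2254 bp downstream of the gene's 5' end, which puts the stronger summit 309 bp and the weaker 1083 bp upstream of that start. With the 5' end of any transcript taken as a promoter, act-4 joined the other 3 genes, so that 4 of 37 had a promoter-window summit, beside 3.55% of all genes.

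Another, weaker peak lay at the 5' end of act-4, 19 bp downstream, with signal 57.2 and pooled rank 1710. Replicate 1 had it at rank 614 (signal 47.5). Replicate 2 had no summit within 200 bp of it, but held one at rank 907 (signal 38.8) that lay 358 bp downstream of the 5' end. Over its 3.79 kb, act-4 carried 5 relaxed pooled summits, or 1.32 per kb, where all protein-coding gene bodies together had 0.138 per kb. The last of these, at 2149 bp with signal 35.6, was within 200 bp of the same replicate 2 peak as the site at 1945 bp and is not separate from it in that replicate.

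The act-2 gene, which also encodes an actin (WBGene00000064, V:11076777 to 11078154, minus strand), had its summit 413 bp upstream of the 5' end at V:11078567, in an intergenic peak from 11078347 to 11078786. The pooled signal was 83.0 at rank 714. The replicates ranked it unequally, at 352 in replicate 1 (signal 60.3) and at 2212 in replicate 2 (signal 28.4). Among the 822 strongest peaks of replicate 2 alone, act-2 had no promoter summit. On the other side of the same intergenic stretch, act-1 is transcribed away from act-2, and the summit was 2485 bp upstream of its 5' end. The act-1 gene had no summit of any list in its promoter window or gene body, and act-3, also in this cluster on chromosome V, had a single relaxed pooled summit 639 bp upstream with signal 32.3 and no counterpart in replicate 2.

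The actin genes are close copies. The coding sequences of act-1 and act-3 were identical over 1128 bases, act-2 matched act-1 at 96.2% of bases and act-4 at 91.8%, and 94.1% of bases were the same in act-1 and act-4. Short reads from act-1 and act-3 coding exons can therefore not be told apart, and the treatment of such reads is not stated in the labels or the deposited notes. The 5 IDR-thresholded windows lay outside exons and held no repeated 36-base word. Among the myosin light chains, mlc-1 and mlc-2 were 96.7% identical in their coding sequences.

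The unc-60 summit (V:1474695, in a peak from 1474475 to 1474914) lay 391 bp upstream of the gene (WBGene00006794, V:1475086 to 1479576, plus strand), and the replicates ranked it alike. It had rank 598 in replicate 1 (signal 48.1) and 517 in replicate 2 (signal 49.6), and a pooled signal of 93.3 at rank 576. UNC-60 severs and depolymerises actin filaments. The same 5' end is annotated for a second protein-coding gene, F53E2.2, so the summit is counted for both. No relaxed pooled summit lay in the gene body.

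The unc-112 summit (V:14697014, in a peak from 14696794 to 14697233) lay 360 bp upstream of the gene (WBGene00006836, V:14691855 to 14696654, minus strand). It had pooled signal 85.5 and rank 671, but its rank was 3265 in replicate 1 (signal 26.7) and 484 in replicate 2 (signal 51.3). In replicate 1 the matched summit lay 460 bp upstream, 100 bp from the pooled one, and unc-112 had no promoter summit among the 822 strongest peaks of that replicate. UNC-112, a kindlin, binds integrin-linked kinase and the integrin tail at dense bodies and M-lines. The genes of its partners pat-3, pat-4, pat-6 and unc-97 had no IDR-thresholded summit in either place. As only 4.32% of all genes had one, this does not single out unc-112 within the complex. Across all 822 IDR-thresholded summits, 561 (68.2%) ranked within 822 in both replicates, as did 2 of the 5 at muscle genes, the one at unc-60 and the stronger one at act-4.

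**Figure D2:**
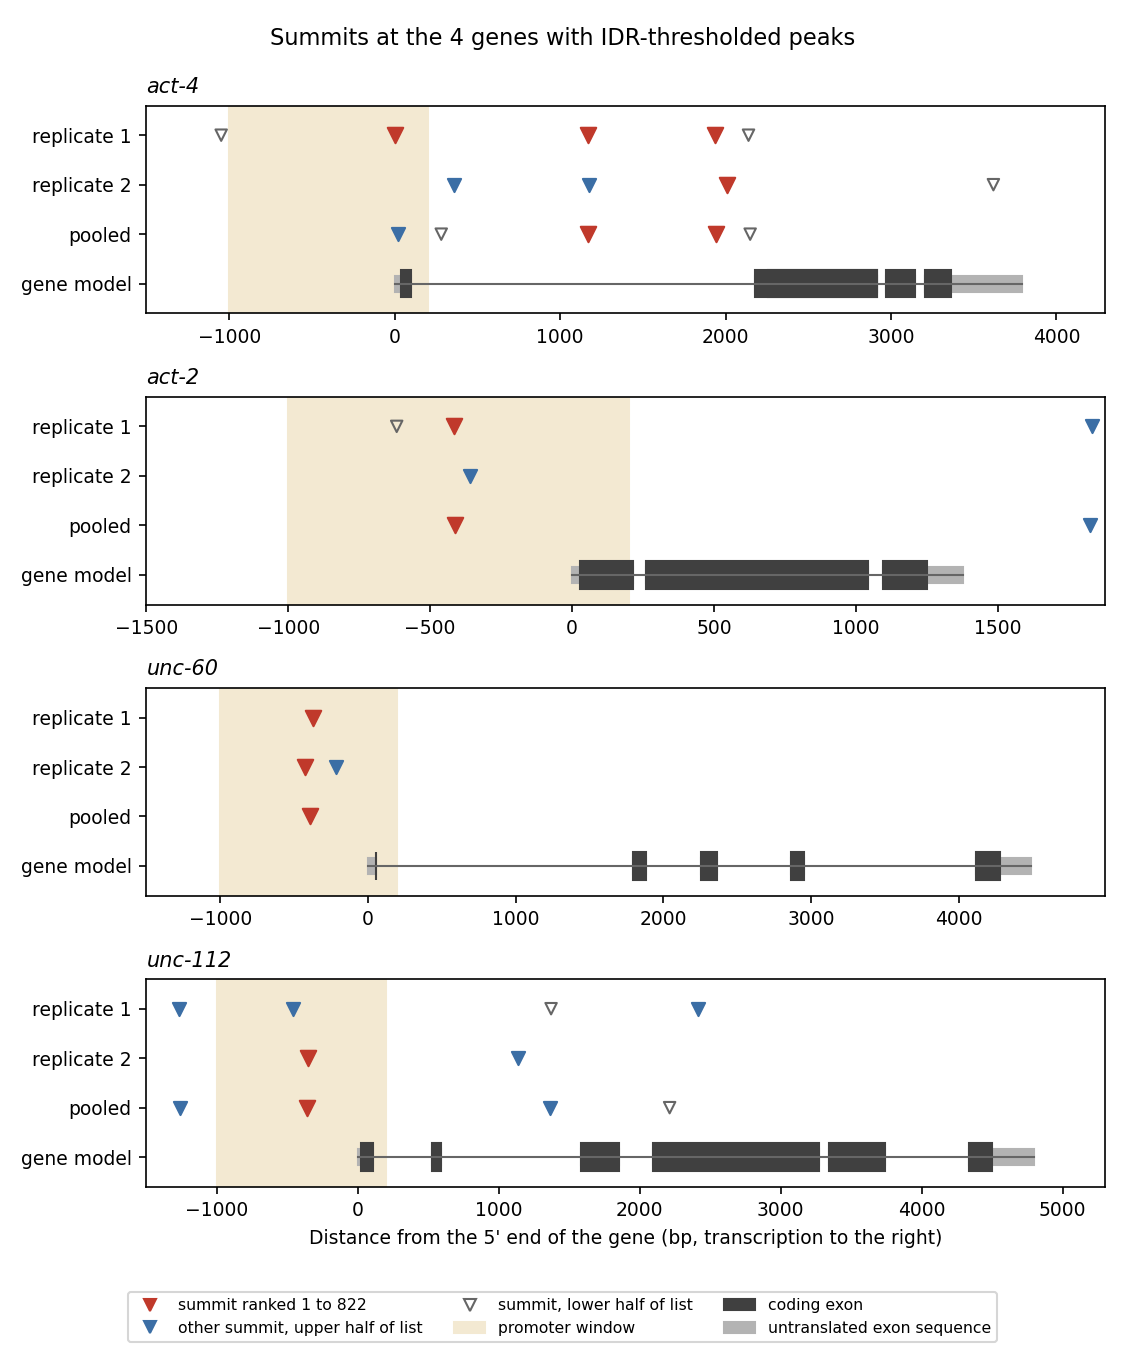
Summits of each list along act-4, act-2, unc-60 and unc-112, by distance from the 5' end of the gene (bp, transcription to the right), with the promoter window shaded, coding exons dark and untranslated exon sequence light. Red marks summits ranked 1 to 822 in their list, blue the other summits of the stronger 50% and open symbols the rest. The act-4 pooled sites in red sit in the first intron at 1171 and 1945 bp, and the other 3 genes each have 1 red pooled summit in the promoter window, between 360 and 413 bp upstream.

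**Figure D3:**
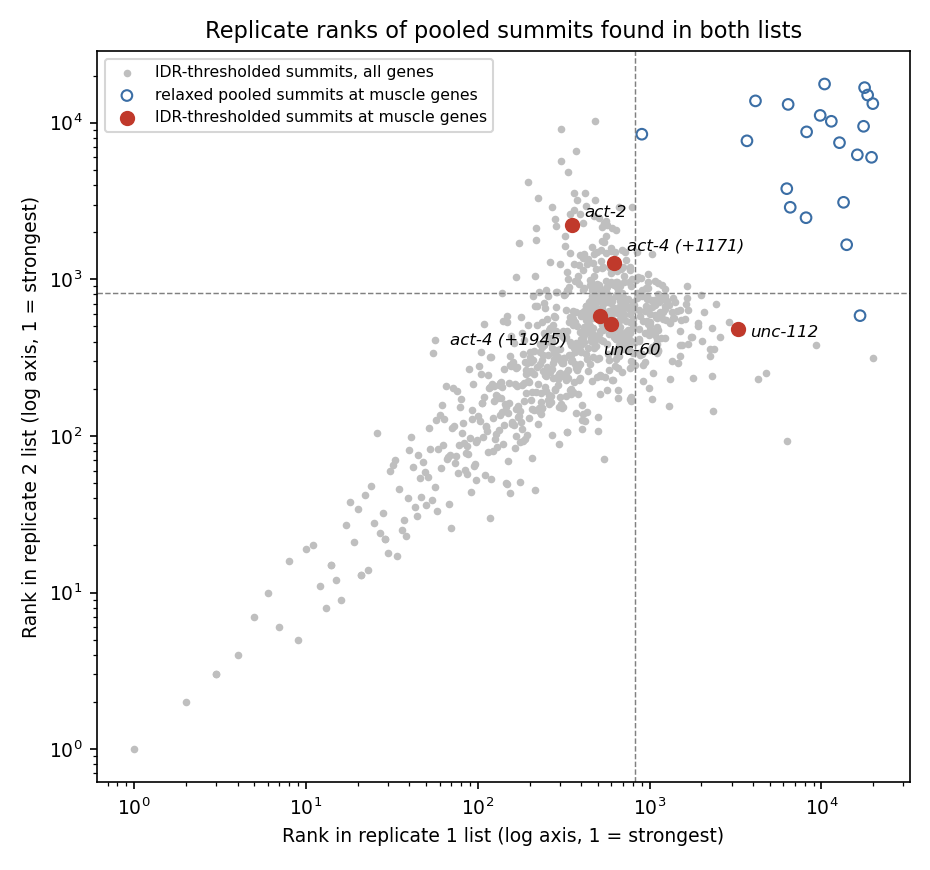
Rank in replicate 2 against rank in replicate 1 (both log axes) for pooled summits matched within 200 bp in both lists. Grey points are 818 IDR-thresholded summits over all genes, red points the 5 at muscle genes and open circles the other muscle gene summits, and dashed lines mark rank 822. The unc-60 point and the stronger act-4 point fall inside both lines, the act-2 point and the weaker act-4 point lie past the line of replicate 2 only, and the unc-112 point past that of replicate 1 only.

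In the relaxed lists, a larger share of the muscle genes than of all genes had a peak, while the median signal of those peaks was close to that of the whole list. A relaxed pooled summit was in the promoter window of 19 of 37 genes (51.4%, Wilson 95% interval 35.9 to 66.6), beside 23.5% of all protein-coding genes. In the gene body it was 22 of 37 (59.5%, interval 43.5 to 73.7), beside 26.4%. In either place it was 28 of 37 (75.7%, interval 59.9 to 86.6), beside 39.9%, which leaves 9 genes with none. The muscle genes are longer, with a median of 3.90 kb beside 2.03 kb for all genes. The part of length in the body counts, here and by class below, was not tested. Promoter-window summits of both replicates within 200 bp of each other were found at 8 of 37 genes (21.6%, interval 11.4 to 37.2), beside 12.8% of all genes. Taken alone, replicate 1 had a promoter summit at 19 genes (51.4%, interval 35.9 to 66.6), beside 29.4% of all genes. Replicate 2 had one at 13 (35.1%, interval 21.8 to 51.2), beside 26.2%. The intervals for replicate 2 alone and for both replicates contain the value for all genes. None of the intervals is a test, because the list was chosen with earlier results of these data known.

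The 67 distinct pooled summits at muscle genes had a median signal of 36.1, beside 35.9 for all 14968. Of the 67, 34 were in the stronger 50% of the pooled list (50.7%), and 26 (38.8%) had a summit within 200 bp in both replicates, beside 43.3% of all pooled summits. The strongest summit in the promoter window had a median signal of 39.7 over the 19 muscle genes that had one and 40.7 over 4688 such genes in all. None of the 67 lay within 200 bp of a tRNA, snoRNA, snRNA, rRNA or miRNA gene, where 28.8% of the IDR-thresholded and 3.81% of the pooled summits lay.

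**Figure D4:**
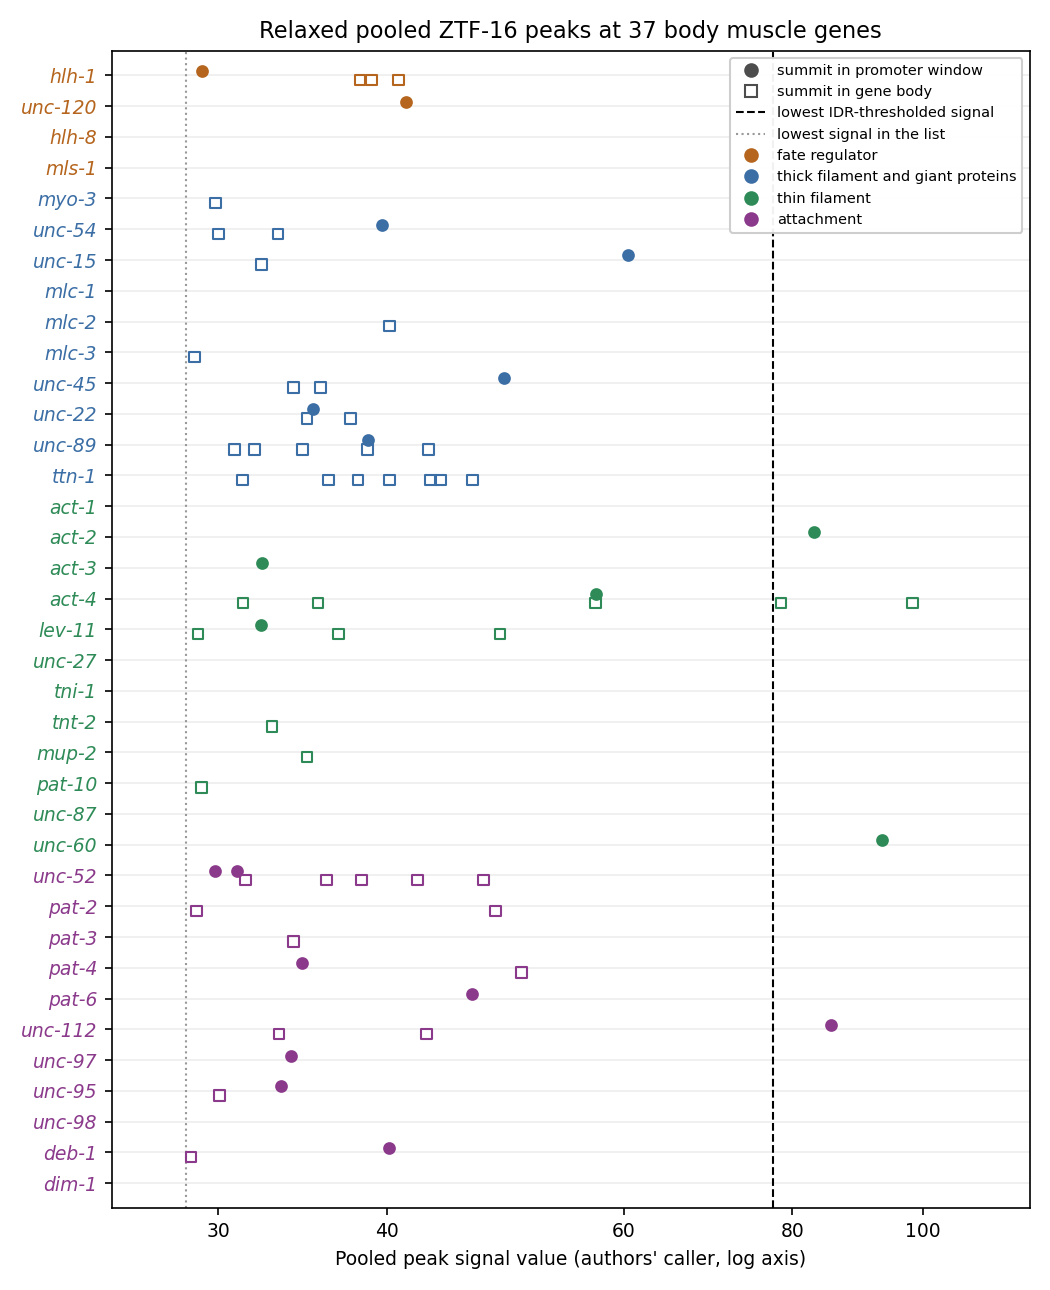
Pooled signal (log axis) of every relaxed pooled summit at the 37 muscle genes, with filled circles for the promoter window and open squares for the gene body, coloured by role. Summits in the first 200 bp of a gene appear as both. The dashed line is the lowest IDR-thresholded signal (77.4), which only the summits of act-2, act-4, unc-60 and unc-112 pass, and the dotted line is the lowest signal of the list (28.4).

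Among the 4 fate regulators, none had an IDR-thresholded summit in the promoter window or gene body, beside 4.32% of all genes. The hlh-1 gene (II:4518574 to 4522528) had 3 relaxed pooled summits inside introns, 681, 900 and 1903 bp downstream of the 5' end, with signals of 40.8, 38.2 and 39.0. The peaks of the summits at 681 and 900 bp overlap. The 681 and 1903 bp sites had ranks of 2165 and 2969 in replicate 1 and no counterpart in replicate 2, while the 900 bp site was in both at ranks 19910 and 13230. In its promoter window a summit 202 bp upstream had signal 29.2, close to the lowest of the list. The unc-120 gene had an intergenic summit 801 bp upstream (I:8459424) with signal 41.3 and rank 4672. It was at rank 9834 in replicate 1 (signal 19.4) and 11126 in replicate 2 (signal 17.97), low in both lists. No pooled summit was found at hlh-8, the Twist homologue of the postembryonic mesoderm lineage, where only replicate 1 had a weak one, or at mls-1, a T-box gene of non-striated muscle fate, where no list had one. The nearest IDR-thresholded summits to the 5' ends of hlh-1 and unc-120 were 141647 and 50205 bp away.

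Of the 10 thick-filament, giant-protein and chaperone genes, 5 had a relaxed pooled summit in the promoter window and 9 in the gene body, beside 23.5% and 26.4% of all genes. These 10 genes run from 0.795 kb (mlc-2) to 81.7 kb (ttn-1). Over all genes, 8.06% of those up to 1 kb, 49% of those of 4 to 8 kb and 100% of those over 32 kb had a body summit. The part of length in the body count was not tested. The highest promoter signal was at unc-15, which encodes paramyosin (signal 60.5, rank 1473, 11 bp upstream at I:7383208), with rank 901 in replicate 1 (signal 40.8) and 8439 in replicate 2 (signal 19.6). Replicate 1 therefore placed it far higher than replicate 2. At unc-45, which encodes the chaperone that folds myosin heads, the summit 265 bp upstream (III:491282) had signal 48.9 and rank 2678, with rank 6582 in replicate 1 (signal 21.9) and 2882 in replicate 2 (signal 26.5). Its sequence is the one above that holds the E-box variant CACGTG. The genes for the 2 body wall myosin heavy chains differed. The major one, unc-54, had a summit 126 bp upstream (I:14863608) with signal 39.7 and rank 5368, at rank 6401 in replicate 1 (signal 22.1) and 13078 in replicate 2 (signal 17.0). The minor one, myo-3, had no promoter summit and a single coding-exon summit of signal 29.9. At unc-89, the obscurin-like M-line gene, the promoter summit was 64 bp downstream (I:4035766, signal 38.7, rank 5830), at rank 13452 in replicate 1 (signal 17.4) and 3101 in replicate 2 (signal 25.96). The unc-22 gene had a promoter summit of signal 35.3 in replicate 2 alone. The light chain genes mlc-1, mlc-2 and mlc-3 had no pooled summit in the promoter window. In the gene body, mlc-2 had one in its coding sequence with signal 40.2, and mlc-3 one in untranslated exon sequence with signal 28.8. The mlc-2 coding sequence was 96.7% identical to that of mlc-1, and how reads from such copies were treated is not stated.

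The 12 thin-filament genes included 3 of the 4 with IDR-thresholded summits in either place, described above, beside 4.32% of all genes. A relaxed pooled summit was in the promoter window of 5 and in the body of 5, beside 23.5% and 26.4% of all genes. None of the troponin genes had a pooled promoter summit. The gene unc-27 (troponin I) had no summit in any list, tni-1 (troponin I) had one in replicate 1 alone, and the tnt-2 and mup-2 (troponin T) and pat-10 (troponin C) genes had one pooled summit each in the gene body, with signals of 32.9, 34.9 and 29.2. The tropomyosin gene lev-11 had 3 intronic pooled summits over 9.93 kb, of which one 2987 bp downstream (signal 48.5, rank 2746) was at ranks 6285 and 3790 in the replicates. Its promoter summit had signal 32.3. At unc-87, which encodes a calponin-related protein that stabilises thin filaments, neither the promoter window nor the body had a pooled summit.

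Of the 11 attachment genes, 7 had a relaxed pooled summit in the promoter window and 7 in the body, beside 23.5% and 26.4% of all genes. These 11 genes run from 1.83 kb (unc-97) to 37.1 kb (unc-52), and the part of length was not tested. Only unc-112 had an IDR-thresholded summit in either place, beside 4.32% of all genes. The pat-6 gene, which encodes the parvin partner of UNC-112, had a summit 398 bp upstream (IV:264630) with signal 46.3 and rank 3261, present at rank 1360 in replicate 1 (signal 35.01) and absent from replicate 2. For pat-4, the integrin-linked kinase gene, the promoter summit (267 bp upstream, signal 34.6) was in replicate 2 alone, at rank 3704, and a coding-exon summit of signal 50.3 was in replicate 1 alone. The integrin genes pat-2 (alpha) and pat-3 (beta) had none in the promoter window. In pat-2 a summit in untranslated sequence 6268 bp downstream had signal 48.2 and was in both replicates at ranks 3686 and 7656. The deb-1 gene, for vinculin of dense bodies, had a summit exactly 1000 bp upstream, at the edge of the window (IV:7095266, signal 40.2, rank 5156). Its ranks were 11418 in replicate 1 and 10204 in replicate 2, with a signal of 18.5 in each. The genes unc-97 (PINCH), unc-95 and unc-52 (perlecan of the basement membrane) had promoter summits with signals of 29.9 to 33.9. Those of unc-97 and unc-52 had a match within 200 bp in replicate 1 alone, and that of unc-95 in neither replicate. For unc-98, a zinc-finger M-line gene, and dim-1, an immunoglobulin-domain gene, no pooled summit was found.

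The muscle genes are long, with a median of 3.90 kb beside 2.03 kb for all protein-coding genes. Over all genes, those of 1 to 2 kb had a mean of 0.160 pooled body summits and those of 8 to 16 kb 1.80. Per summed length the muscle genes and all genes were close: 49 body summits over 350 kb gave 0.140 per kb at muscle genes, beside 0.138 per kb over all genes. Of the 350 kb, 212 kb belong to the 4 genes over 32 kb, which had a lower density than the other muscle genes, as given below. By replicate the densities were 0.206 and 0.146 per kb at muscle genes for replicates 1 and 2, beside 0.207 and 0.172 per kb over all genes. The promoter window has the same length for every gene.

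Within the set, the summed density was lower at the 4 genes over 32 kb than at the rest, a split chosen after the values were seen. The giant genes ttn-1 (titin-like, 81.7 kb), unc-89 (55.2 kb), unc-22 (twitchin, 38.3 kb) and unc-52 (37.1 kb) had 7, 5, 2 and 5 body summits and together 0.0895 per kb, where all 48 protein-coding genes over 32 kb had 0.179 per kb. The other 33 muscle genes had 0.218 per kb (0.187 without act-4), beside 0.137 per kb for all genes up to 32 kb. Coding exons made up 54.1% of the 4 giant gene bodies and 20.9% of all bodies over 32 kb. Coding exons held 0.0348 pooled summits per kb in the 4 genes and 0.0892 per kb in all over 32 kb, and introns 0.151 and 0.198 per kb. The part of coding content in the lower density was not tested.

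In ttn-1 the strongest of the 7 summits (signal 46.3, rank 3239) lay 61770 bp downstream, where the gene exp-2 also lies, and replicate 2 had no summit within 200 bp. An overlapping pooled peak, with its summit 61566 bp downstream (signal 43.1), was matched in both replicates, at ranks 17590 and 9480. The ttn-1 summits 39466 and 39244 bp downstream also had overlapping peaks. They matched the same replicate 2 peak, at rank 2163, and none in replicate 1, so the 7 summits are not 7 separate sites. At unc-52 the strongest was 2601 bp downstream in an intron (signal 47.2, rank 3046), at rank 14024 in replicate 1 and 1662 in replicate 2. At unc-89 an intronic summit 10963 bp downstream (signal 43.0) was in replicate 2 alone. In unc-22, replicate 1 listed 8 body summits and replicate 2 listed 1.

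**Figure D5:**
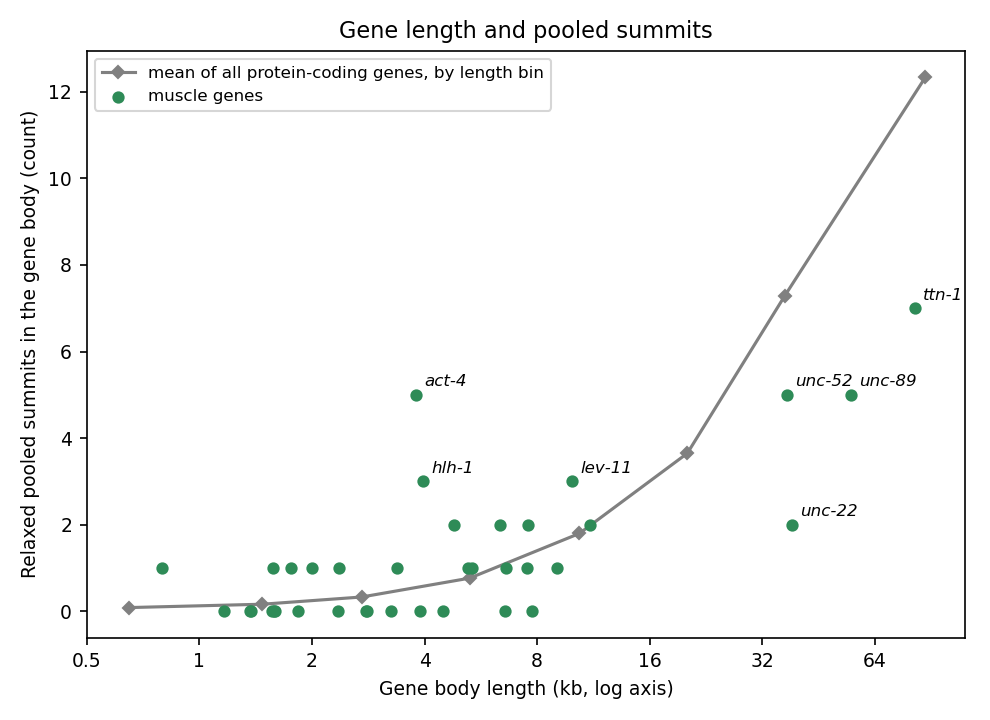
Relaxed pooled summits in the gene body (count) against gene body length (kb, log axis) for the 37 muscle genes (green), with the mean of all protein-coding genes in each length bin (grey diamonds at the bin's median length). The act-4 gene has 5 summits in 3.79 kb, while ttn-1, unc-22, unc-52 and unc-89 lie below the line.

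Other muscle-related genes were listed by function apart from the 37. Of 109 such genes 4 had an IDR-thresholded summit in the promoter window (3.67%) and 8 in either place (7.34%), beside 3.29% and 4.32% of all genes. A relaxed pooled promoter summit was found at 31 (28.4%), beside 23.5%. Among 41 further sarcomere and attachment genes the 3 with IDR-thresholded sites were ufd-2 (signal 101, 232 bp upstream), whose product acts on UNC-45, cap-2 (82.7, 233 bp upstream), which encodes an actin-capping subunit, and lim-8 (88.4, in the gene body near a small non-coding gene). In replicates 1 and 2, ufd-2 had ranks 443 and 479, and cap-2 had ranks 1612 and 558. Of 29 excitation genes, sca-1, the calcium pump of the sarcoplasmic reticulum, had a promoter summit at rank 822, the last of the IDR list (77.4), and cam-1, a Ror receptor tyrosine kinase, had one 1371 bp inside the gene (104). Of 23 further fate regulators skn-1 had one (96.2, in the gene body), a share of 4.35%, close to the 4.32% of all genes. Of 10 pharyngeal muscle genes none did, and finding none among so few does not set them apart. Some of these 10, such as myo-1 and myo-2, are also in the other lists. The shares with a summit in either place were 7.32% for the sarcomere and attachment list, 6.9% for excitation and 16.7% for the epidermal side. Among 12 genes of the epidermal side of the attachment, the sites were at spc-1 and unc-70, which encode alpha and beta spectrin, with signals of 95.4 and 149, and the unc-70 site lay near a small non-coding gene.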

How the data were processed

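Peaks were taken from the 4 deposited ce11 lists (1 per replicate, pooled, IDR-thresholded) in narrowPeak format, called by the authors against 1 control file, per the deposited notes. The signal value of each peak is the authors' deposited output. No aligner, peak caller or IDR threshold was given in the sources read here. Lists in ce10 were not used here. Positions were read as 1-based summits. Genes, transcripts and small non-coding genes came from Ensembl release 115 on WBcel235, and sequences from RefSeq's file of that assembly. A summit counted for every gene whose window or body held it. Replicate summits were matched within 200 bp, to the strongest one.

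The members and lists were chosen with earlier results of these data known, so no list was tested. Main counts stand beside the share over all genes. All 37 members are accounted for. Values are given for every member with an IDR-thresholded summit, for those with a promoter summit in the stronger 50% of the pooled list or in both replicates, and for the 3 highest counts of body summits with ties. From other muscle lists, genes with an IDR-thresholded summit are named, at most 4 per list. Further named members, GAGAG, the unc-45 sequence and the split at 32 kb were chosen after values were seen. Intervals are Wilson intervals. Of the other lists, tni-2 had no match. Identity was computed between coding sequences, in place of proteins as planned. Alternatives were other windows, overlap, other transcripts, the nearest gene, peaks away from small non-coding genes, stronger peaks, other matching distances and each replicate alone. Counting was tested on simulated summits. Python 3.11.15, numpy 2.4.6, pandas 2.3.3 and matplotlib 3.10.9 were used.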

Additional observations from a re-analysis of the deposited data

How the results depend on the processing

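Promoter-window counts of IDR-thresholded genes stayed at 3 or 4 with other windows, overlap in place of summits, any transcript's 5' end, the nearest gene alone or no peaks near small non-coding genes, while the share of all genes ran from 2.27% (nearest gene) to 4.29% (2000 bp window). With one replicate alone (its 822 strongest peaks) they ran from 2 to 3 (3.18% and 3.21% of all genes), and the genes differed: unc-60 and unc-112 without replicate 1, and act-2, act-4 and unc-60 without replicate 2. In the stronger 50% of the IDR list by signal, the promoter count was 0 (1.67% of all genes) and the gene body count 0 (0.596%), since the 5 summits have ranks from 506 to 801. Counting any overlap gave 2 gene bodies (act-4 and unc-45) in place of 1, and 2.71% of all genes in place of 1.17%. The stronger 50% of the pooled list gave 11 promoter windows and 11 gene bodies in place of 19 and 22, and 0.0715 summits per kb in place of 0.140, and the stronger 50% of each replicate list gave 5 genes in place of 8, with shares of 15.2%, 14.0% and 8.31% for all genes. These follow from fewer peaks. Without one replicate, the relaxed counts were 13 to 19 promoter windows (26.2% to 29.4% of all genes), 23 to 25 bodies (32% to 35.8%) and 0.146 to 0.206 per kb (0.172 to 0.207 over all genes), and the gene body count of the IDR list stayed at 1. No paired analysis was possible because there is 1 group. Depth is unknown, so a missing peak is not evidence of absence.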

Other observations

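Other peaks lay beside muscle genes without falling in the windows used. Between act-2 and act-3 a relaxed pooled summit lay 1824 bp downstream of the 5' end of act-2 (signal 44.8, rank 3609), with rank 1198 in replicate 1 and none of replicate 2 near it. Past the 3' end of unc-112, 7091 bp from its 5' end, an IDR-thresholded summit had signal 79.0 and rank 792, with ranks of 1368 in replicate 1 and 764 in replicate 2. Beyond the 3' end of unc-45 an IDR-thresholded summit at III:502765 (signal 201, rank 96) lay near a small non-coding gene. Upstream of pat-3, 2671 bp from its 5' end, an IDR-thresholded summit with signal 172 lay closer to ccdc-47, 147 bp upstream of that gene. Within 5 kb of a 5' end, 7 of 37 muscle genes had an IDR-thresholded summit, 3 of them the neighbouring act-1, act-2 and act-3 through 1 summit, beside 9.17% of all protein-coding genes. The median distance to the nearest one was 50205 bp for the muscle genes and 48593 bp for all genes.

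The 300-base promoters of the 37 genes (250 bases before to 50 after the 5' end) had a GC content of 41.0% ± 8.16, beside 34.8% ± 5.30 over all promoters (SD over genes). GAGAG, on either strand, was in 28 of 37 (75.7%), beside 39.9% of all promoters. GGGAA was in 59.5%, beside 43.5%. CANNTG was in 62.2%, beside 69.4%, and AAAAAA in 59.5%, beside 80.1%. GAGAG was searched after the peak sequences had been seen, and no share was tested.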
